A study of Homo sapiens with 9 samples.

Results

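Transcripts of the accessory subunits of Polycomb repressive complex 2 (PRC2) were measured in human pluripotent cells on the way out of the naive state. The 7 genes JARID2, AEBP2, MTF2, PHF1, PHF19, EPOP and LCOR were taken from the deposited count table by their symbols, and each was found once among its 56312 entries. All 7 passed the filter on low counts, which left 24182 genes to be tested. The cells were HNES1, 1 wild-type line derived from a human embryo, which had been kept naive on mouse feeder cells and were harvested on day 5 of the transition. UNC6852 at 2.5 µM, a bifunctional degrader of the PRC2 subunit EED (group PROTAC), UNC1999 at 1 µM, which blocks the catalytic subunits EZH2 and EZH1 (group UNC), or DMSO alone was given from the day preceding the switch out of naive medium, with fresh compound every day. Every group held 3 libraries, numbered 1 to 3, from 3 runs of the experiment that the design text calls independent.

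PRC2 places methyl groups on lysine 27 of histone H3, a mark of repressed developmental genes. Its core of EZH2 or EZH1, EED, SUZ12 and RBBP4 or RBBP7 binds mutually exclusive sets of accessory proteins that guide it to chromatin and tune its activity. The PRC2.2 form carries JARID2, a Jumonji protein without demethylase activity, and the zinc finger protein AEBP2, which together read ubiquitin on histone H2A. The PRC2.1 form carries 1 of the Polycomb-like proteins MTF2, PHF1 and PHF19, which bind unmethylated CpG-rich DNA and methylated lysine 36 of histone H3, along with either EPOP, which also binds elongin B and C, or PALI1, a product of the LCOR gene. LCOR also encodes a nuclear receptor corepressor, and counts per gene cannot separate it from PALI1.

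The main findings concerned EPOP and PHF19, and both rest on a fit with the replicate number in the model. The fit set as the main one, by group alone, called 0 of the 7 genes in any comparison. EPOP transcripts were highest with the degrader and lowest with the inhibitor, with no overlap of any groups. Of all genes, 6.07% had every PROTAC library above every DMSO library, and 9.07% had every UNC library below every DMSO library. The EPOP difference between the compounds passed the test once the replicate number was in the model, where 2.90% of all genes were called. PHF19 transcripts fell with the inhibitor against DMSO in that model, where 13.5% of all genes were called for this comparison. The PHF19 call was kept in 13 of 18 further settings of that model. JARID2, AEBP2, MTF2, PHF1 and LCOR passed no test between groups. With the number in the model their 95% intervals against DMSO all lay between -9.49% and 16.3%.

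Because Polycomb-like proteins bind CpG-rich DNA, the start regions of their own genes are shown, from RefSeq on GRCh38.p14, each covering 250 bases before to 50 bases after a start. CG dinucleotides are in capitals, and where a gene had several windows the one richest in CG is given. PHF19 is shown from chr9:120877139-120877438 (minus strand), MTF2 from chr1:93079033-93079332 (plus strand) and PHF1 from chr6:33410764-33411063 (plus strand).
PHF19: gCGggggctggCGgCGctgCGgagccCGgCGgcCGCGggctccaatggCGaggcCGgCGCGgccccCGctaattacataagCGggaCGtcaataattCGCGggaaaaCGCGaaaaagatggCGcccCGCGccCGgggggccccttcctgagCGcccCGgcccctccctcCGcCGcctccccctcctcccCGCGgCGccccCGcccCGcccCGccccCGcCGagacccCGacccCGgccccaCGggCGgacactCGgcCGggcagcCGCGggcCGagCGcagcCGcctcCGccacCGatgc
MTF2: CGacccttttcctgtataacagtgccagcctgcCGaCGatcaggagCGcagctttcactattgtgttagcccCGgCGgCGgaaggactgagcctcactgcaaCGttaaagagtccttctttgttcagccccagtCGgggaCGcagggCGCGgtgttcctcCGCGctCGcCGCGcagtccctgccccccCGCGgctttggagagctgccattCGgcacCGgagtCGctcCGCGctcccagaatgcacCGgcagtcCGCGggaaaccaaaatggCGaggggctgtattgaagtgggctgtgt
PHF1: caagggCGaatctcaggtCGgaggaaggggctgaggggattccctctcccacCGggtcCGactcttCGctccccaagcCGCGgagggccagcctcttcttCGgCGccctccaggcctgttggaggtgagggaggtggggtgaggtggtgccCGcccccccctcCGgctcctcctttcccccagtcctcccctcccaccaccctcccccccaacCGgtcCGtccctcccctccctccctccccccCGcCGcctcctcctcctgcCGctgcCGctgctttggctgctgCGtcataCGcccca

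These windows held 48 CG dinucleotides for PHF19, 28 for MTF2 and 19 for PHF1. Of 35114 full windows in the RefSeq table, 1.98% held at least as many as PHF19, 26.2% as many as MTF2 and 42.9% as many as PHF1, against a median of 14. These shares are of single windows, not of the richest window per gene. The other PHF19 window held 26, a number that 30.1% of windows reached. Windows were matched for 6 of the 7 genes, all but EPOP. LCOR had 51 in its richest window, JARID2 40 and AEBP2 28, so all 6 lay above the median. CG reads the same on both strands. The counts describe sequence and say nothing of binding or methylation in these cells.

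Libraries held 31651742 to 101081643 counts, and the 7 genes between 381 and 93937 each, so that counting alone gives a coefficient of variation of at most 5.12% for any value. Levels are in CPM, counts scaled to a common library size with TMM normalisation, and per kilobase of annotated exon where genes are compared with each other. Pluripotency markers summed to 5227 to 5516 CPM with PROTAC, 5258 to 5680 CPM with UNC and 4844 to 5181 CPM with DMSO, and all 7 were detected in every library. The naive markers KLF17 (25.1 to 44.4 CPM), DPPA3 and DPPA5 were still present, while the primed markers OTX2 (0.812 to 1.96 CPM) and DUSP6 were low. Neural markers were under 1 CPM in every library. The 6 trophoblast markers summed to 15.2 to 45.9 CPM with PROTAC, 10.7 to 27.9 CPM with UNC and 19.7 to 48.5 CPM with DMSO. In such bulk libraries fewer cells of a type and less RNA per cell cannot be told apart. EED itself averaged 12.4 ± 0.342 CPM with PROTAC, 12.1 ± 0.758 CPM with UNC and 11.7 ± 0.729 CPM with DMSO (SD, n = 3 each), which does not check the degrader, since that acts on protein.

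The accessory subunits covered a wide range of levels, led by the PRC2.2 pair. Per kilobase, JARID2 averaged 138 ± 6.44 CPM over the 9 libraries (range 131 to 150), AEBP2 28.9 ± 1.40 (27.4 to 31.6) and MTF2 19.1 ± 0.920 (18.1 to 20.9). PHF1 followed at 7.94 ± 0.894 CPM per kilobase (6.58 to 9.23) and PHF19 at 4.28 ± 0.309 (3.87 to 4.75). EPOP averaged 3.18 ± 0.596 (2.61 to 4.42) and LCOR 3.02 ± 0.152 (2.75 to 3.22). The ranges of the first 4 genes did not overlap with each other or with the rest, whereas EPOP overlapped with both PHF19 and LCOR. EPOP was above PHF19 in PROTAC 3 and below LCOR in 4 libraries. Among 20539 tested genes with an annotated length, JARID2 stood at percentile 98.9 of level per kilobase, AEBP2 at 92.5, MTF2 at 88.5, PHF1 at 73.0 and the other 3 between 52.9 and 59.6. LCOR has 26.02 kb of annotated exon, against 16.004 kb in its longest transcript. With the longest transcript as length it rises to 4.91 CPM per kilobase and passes EPOP, while the first 5 ranks by mean stay.

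**Figure D1:**
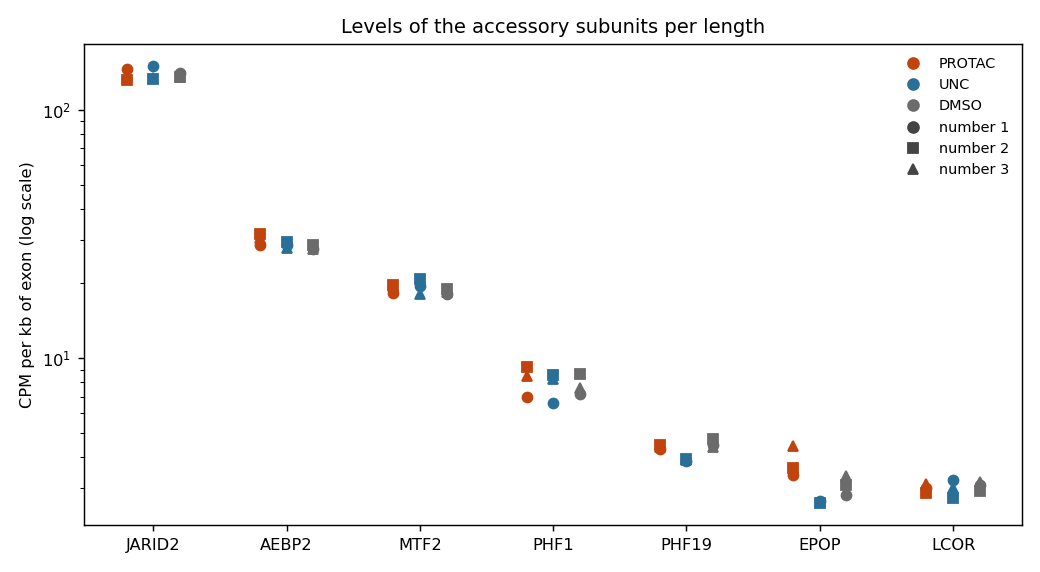
Level per kilobase of exon (log axis) of the 7 accessory subunits in each of 9 libraries, coloured by group and shaped by replicate number. JARID2 lies above 131 CPM per kilobase in every library, and EPOP and LCOR overlap at the low end.

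At the transcript level, the ratio of PRC2.2 to PRC2.1 genes overlapped between the 3 groups. Most of the PRC2.2 sum came from JARID2, and sums of transcripts do not measure the amounts of the 2 forms of the complex. The summed level per kilobase of the PRC2.2 genes was 4.85, 4.08 and 4.21 times that of the 5 PRC2.1 genes in PROTAC 1 to 3, 4.98, 4.19 and 4.52 times in UNC 1 to 3 and 4.72, 4.28 and 4.402 times in DMSO 1 to 3. In all groups the library numbered 1 had the highest ratio and number 2 the lowest, and the groups overlapped. With the longest transcript as length the ratio averaged 3.30 with PROTAC, 3.40 with UNC and 3.34 with DMSO. Among the Polycomb-like paralogs MTF2 made up most of the transcripts, with 60.4% ± 1.45 in PROTAC, 62.6% ± 2.63 in UNC and 59.99% ± 1.24 in DMSO (SD, n = 3 each) of their summed level per kilobase. PHF19 took 14.5%, 13.4% and 13.6% in PROTAC, 12.9%, 11.8% and 12.9% in UNC and 15.1%, 14.7% and 14.5% in DMSO, so its share was lowest in the 3 UNC libraries.

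Differences between groups were tested with edgeR's quasi-likelihood test on all 24182 genes, with Benjamini-Hochberg adjustment at a false discovery rate of 0.05, by group alone and again with the replicate number as a further term (the paired fit). Same-numbered libraries departed from their group means in a like way, so both fits are given. By group alone 0 of the 7 genes were called in any comparison, with 1, 1 and 2 at an unadjusted p under 0.05 for PROTAC against DMSO, UNC against DMSO and PROTAC against UNC. Over all genes that fit called 0%, 0.720% and 0.00827% in these comparisons. DESeq2 by group alone called 1, EPOP between PROTAC and UNC, and limma-voom called 0. In the paired fit 1 of 7 genes was called in each comparison, where 3.02% of all genes were called for PROTAC against DMSO, 13.5% for UNC against DMSO and 2.90% for PROTAC against UNC. In the direction of the gene called these shares were 2.03%, 6.46% and 2.16%. One gene in 7 is too small a count to set against these shares, so the results below are of single genes.

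EPOP is the PRC2.1 cofactor that tethers elongin B and C to the complex, and it gave the clearest pattern (ENSG00000273604, chromosome 17, 38671703 to 38674957, minus strand). It was at 12.6, 13.4 and 16.4 CPM in PROTAC 1 to 3, at 9.86, 9.72 and 9.84 CPM in UNC 1 to 3 and at 10.4, 11.5 and 12.5 CPM in DMSO 1 to 3. Every PROTAC library was above every DMSO library, and every UNC library was below them, the UNC libraries being nearly equal to each other. Between the compounds EPOP was higher with PROTAC by 0.51 on the log2 scale in the paired fit (SE 0.0856, 95% interval 0.34 to 0.69, edgeR adjusted p = 0.000136), and higher in 3 of 3 pairs. By group alone the same difference was 0.52 (SE 0.117, edgeR adjusted p = 0.265). The paired call held in all 18 further settings of the paired fit, with log2 fold changes from 0.40 to 0.60 and edgeR, DESeq2 or limma adjusted p up to 0.0405. It held without PROTAC 3, which had the fewest counts and the highest EPOP level, at 0.44 (edgeR adjusted p = 0.00563).

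Set against vehicle, EPOP rose with PROTAC in the paired fit by 0.29 (SE 0.0850, 95% interval 0.12 to 0.47, edgeR adjusted p = 0.0473, higher in 3 of 3 pairs). This call lay close to the threshold and was kept in 3 of the 18 further paired settings, among which log2 fold changes ran from 0.22 to 0.34 and adjusted p from 0.0396 to 0.338. It was lost without any 1 of the PROTAC or DMSO libraries, or without UNC 1 or UNC 2. By group alone EPOP differed by 0.30 (edgeR adjusted p = 0.987). With UNC, EPOP differed from DMSO by -0.22 in the paired fit (SE 0.0862, 95% interval -0.39 to -0.04, edgeR adjusted p = 0.0893), lower in 3 of 3 pairs but not called. Over all genes 6.07% had every PROTAC library above every DMSO library, 9.07% had every UNC library below every DMSO library and 5.15% had every PROTAC library above every UNC library. Both comparisons with vehicle share the DMSO libraries, and the compounds were used at different doses.

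**Figure D2:**
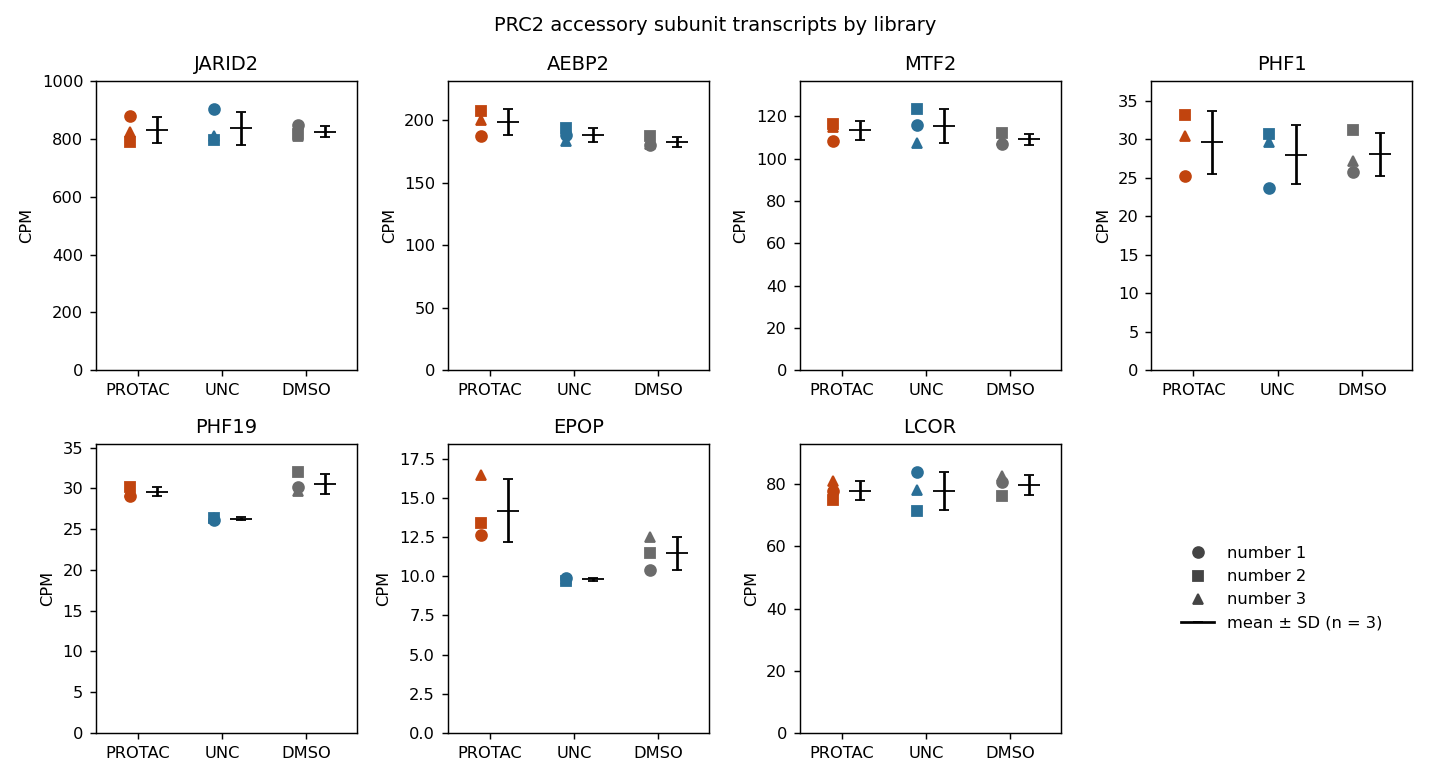
Level in CPM of each accessory subunit in the 9 libraries, by group, with shapes for the replicate number and a bar for the mean ± SD (n = 3) beside each group. EPOP separates the groups without overlap, and the UNC libraries of PHF19, at 26.1 to 26.4 CPM, lie below the other 6.

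PHF19, the least abundant of the Polycomb-like paralogs (ENSG00000119403, chromosome 9, 120855651 to 120894896, minus strand), was lower with the inhibitor. Its levels were 29.04, 30.2 and 29.6 CPM in PROTAC 1 to 3, 26.1, 26.4 and 26.3 CPM in UNC 1 to 3 and 30.2, 32.0 and 29.6 CPM in DMSO 1 to 3. The UNC libraries lay below all others, while PROTAC and DMSO overlapped. Of all genes, 9.07% had every UNC library below every DMSO library and 5.15% had every PROTAC library above every UNC library. The share with both was not counted. Against DMSO, PHF19 fell by 0.22 on the log2 scale with UNC in the paired fit (SE 0.0618, edgeR adjusted p = 0.0138, lower in 3 of 3 pairs), a change of -14.1% with a 95% interval of -21.2% to -6.28%. By group alone the difference was -0.22 (SE 0.0714, edgeR adjusted p = 0.194). The paired call was kept in 13 of 18 further settings, with values of -0.25 to -0.19, and was lost without UNC 1, UNC 2 or DMSO 2 and without the libraries numbered 2 or 3 (adjusted p up to 0.204).

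Under the degrader PHF19 differed from DMSO by -0.05 (95% interval -0.17 to 0.08, edgeR adjusted p = 0.782, paired). PROTAC exceeded UNC by 0.17 (SE 0.0621, 95% interval 0.04 to 0.30, edgeR adjusted p = 0.164, higher in 3 of 3 pairs), which was not called in any setting run, so a difference between the compounds is not shown for PHF19. Several marker sums were also lowest in mean with UNC, those of naive and primed cells among them. The naive markers averaged 1409 CPM in sum with UNC, 1478 CPM with PROTAC and 1453 CPM with DMSO. The primed or formative markers averaged 721 CPM with UNC, 758 CPM with PROTAC and 737 CPM with DMSO. For both lists the ranges overlapped. The pluripotency sum was highest in mean with UNC, at 5473 CPM against 5356 CPM with PROTAC and 5000 CPM with DMSO. The 6 trophoblast markers averaged 32.8 CPM in sum with PROTAC, 18.9 CPM with UNC and 36.7 CPM with DMSO, with overlapping ranges. The 5 fibroblast markers summed to 424 to 460 CPM with PROTAC, 365 to 421 CPM with UNC and 427 to 469 CPM with DMSO, although COL3A1 was at most 0.042 CPM. That sum includes THY1 (179 to 228 CPM), also listed among the primed markers, and PDGFRB was at most 2.02 CPM. The sum therefore does not mark fibroblasts alone. The 2 mesoderm markers summed to 3.18 to 7.51 CPM with PROTAC, 2.47 to 4.08 CPM with UNC and 6.11 to 8.88 CPM with DMSO. The 4 amnion markers summed to 5.22 to 7.42 CPM with PROTAC, 4.21 to 6.71 CPM with UNC and 6.88 to 7.19 CPM with DMSO, and the 2 neural markers to 0.182 to 0.316 CPM with PROTAC, 0.179 to 0.279 CPM with UNC and 0.309 to 0.501 CPM with DMSO. For fibroblast, mesoderm, amnion and neural markers the UNC and DMSO ranges did not overlap. The fibroblast ranges nearly met, at 421 and 427 CPM, as did those of amnion, at 6.71 and 6.88 CPM. The neural sums came from PAX6 and SOX1, which reached at most 0.306 and 0.288 CPM. Among single genes, 9.07% had every UNC library below every DMSO library. The 3 endoderm markers summed to 4.18 to 5.62 CPM with PROTAC, 4.13 to 6.29 CPM with UNC and 4.596 to 7.28 CPM with DMSO. The part of these cell types in the lower PHF19 and EPOP levels was not tested. PHF19 overlaps an antisense entry on the other strand, which had 0.386% as many counts.

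**Figure D3:**
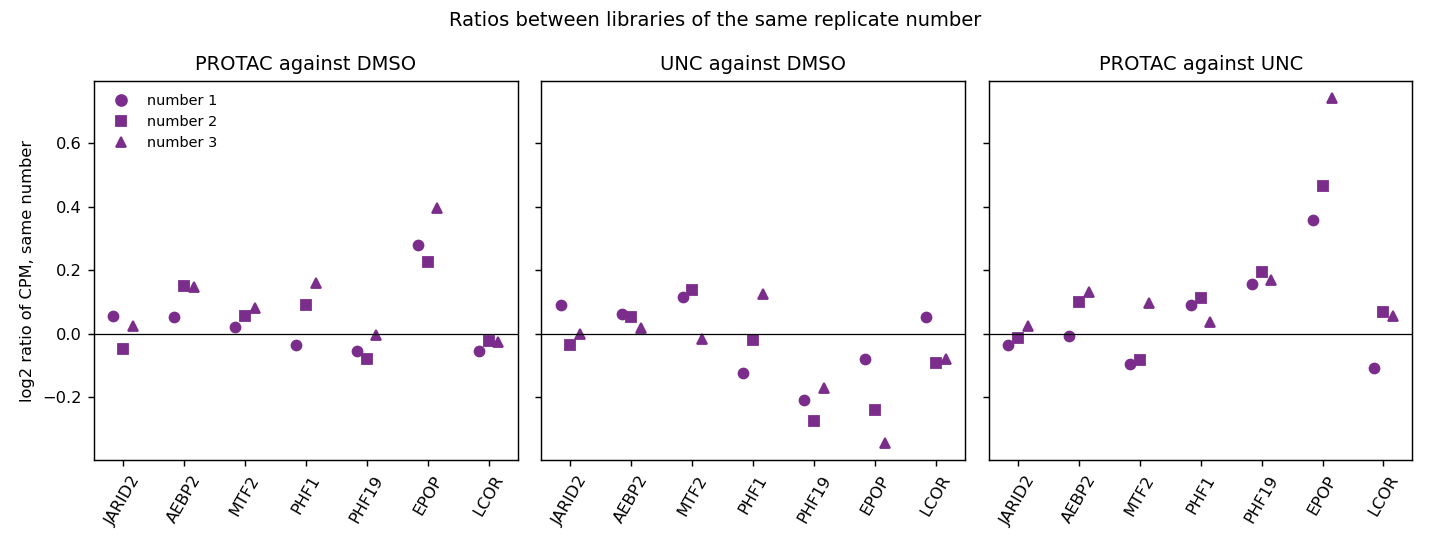
Log2 ratio of CPM between libraries of the same replicate number for each accessory subunit, in 3 comparisons, with a shape per number. EPOP is positive in all pairs of PROTAC against UNC (0.36, 0.47 and 0.74), and PHF19 is negative in all pairs of UNC against DMSO (-0.21, -0.28 and -0.17).

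The other Polycomb-like genes were not called between groups. MTF2 is the main paralog of pluripotent cells in the mouse (ENSG00000143033, chromosome 1, 93079235 to 93139079). It was at 108, 117 and 115 CPM in PROTAC, 116, 123.3 and 108 CPM in UNC and 107, 112 and 109 CPM in DMSO, with overlapping groups. In the paired fit MTF2 differed from DMSO by 3.67% with PROTAC (95% interval -3.58% to 11.5%) and by 5.66% with UNC (-1.70% to 13.6%), with edgeR adjusted p of 0.694 and 0.351. PHF1 (ENSG00000112511, chromosome 6, 33410399 to 33416453) was at 25.2, 33.2 and 30.4 CPM in PROTAC, 23.7, 30.8 and 29.6 CPM in UNC and 25.8, 31.2 and 27.2 CPM in DMSO. In each group its lowest value came from the library numbered 1 and its highest from number 2. In the paired fit PHF1 differed from DMSO by 4.88% with PROTAC (95% interval -4.18% to 14.8%) and by -0.60% with UNC (-9.16% to 8.77%). PHF1 shares 12 bases with CUTA on the opposite strand, which had 101% as many counts as PHF1. As the strand setting of the counting is not given, reads in those bases could count for either.

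LCOR, the gene of PALI1 (ENSG00000196233, chromosome 10, 96832254 to 96995956), was at 77.8, 74.9 and 81.1 CPM in PROTAC, 83.8, 71.5 and 78.1 CPM in UNC and 80.7, 76.2 and 82.5 CPM in DMSO. The groups overlapped, and the paired differences from DMSO were -2.38% with PROTAC (95% interval -9.36% to 5.13%) and -2.54% with UNC (-9.49% to 4.94%). Its paralog LCORL, which encodes PALI2, did pass the test: it rose with UNC by 0.48 by group alone (SE 0.0829, edgeR adjusted p = 0.0249) and by 0.48 in the paired fit (SE 0.0660, edgeR adjusted p = 1.59e-06), higher in 3 of 3 pairs. By group alone the call was lost without any 1 of 6 libraries, PROTAC 3, UNC 2, UNC 3 and DMSO 1 to 3 (edgeR adjusted p 0.050009 to 0.109). It was lost too without number 1, 2 or 3 (0.0616, 0.232 and 0.555), while the paired call was kept without each of these libraries or numbers. The call by group alone was also lost with just the 6 libraries compared (edgeR adjusted p = 0.0504) and at a threshold of 0.01. With PROTAC, LCORL rose by 0.27 in the paired fit (edgeR adjusted p = 0.0175, and 0.938 by group alone), and the compounds did not differ by the test (-0.21, edgeR adjusted p = 0.0737).

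The PRC2.2 genes were not called between groups. JARID2 (ENSG00000008083, chromosome 6, 15246069 to 15522042) was at 881, 790 and 825 CPM in PROTAC, 904, 797 and 811 CPM in UNC and 849, 817 and 812 CPM in DMSO. In each group the highest value came from the library numbered 1, and the groups overlapped. Its paired differences from DMSO were 0.655% with PROTAC (95% interval -6.46% to 8.31%) and 1.26% with UNC (-5.90% to 8.96%), and by group alone the intervals were wider, at -9.98% to 12.8% and -9.40% to 13.5%. Both signs turned with library-size or upper-quartile scaling. AEBP2 (ENSG00000139154, chromosome 12, 19404045 to 19720801) was at 187, 208 and 200 CPM in PROTAC, 188, 194 and 183 CPM in UNC and 180, 187 and 181 CPM in DMSO. Every PROTAC library was above every DMSO library, as for 6.07% of all genes, the nearest being PROTAC 1 and DMSO 2. AEBP2 was higher with PROTAC by 8.49% in the paired fit (95% interval 1.17% to 16.3%), which did not pass the adjustment over all genes (edgeR adjusted p = 0.218). With UNC it differed by 3.10% (95% interval -3.85% to 10.5%). Entries overlapping JARID2 or AEBP2 had at most 0.0744% as many counts. Between the compounds the 5 genes JARID2, AEBP2, MTF2, PHF1 and LCOR differed by -0.03 to 0.08 on the log2 scale in the paired fit, with edgeR adjusted p of 0.595 or more and 95% intervals between -8.73% and 15.5%.

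**Figure D4:**
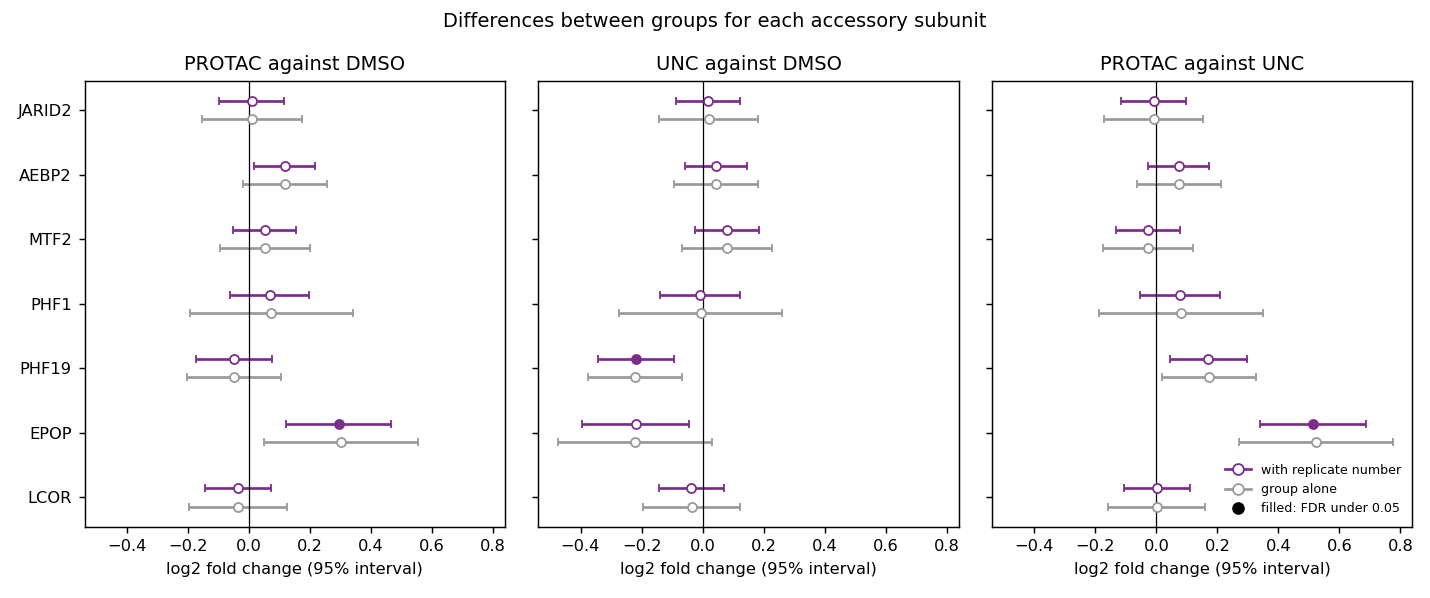
Log2 fold change with its 95% interval for each accessory subunit in 3 comparisons, from the fit by group alone (grey) and the paired fit (purple), with filled points where the false discovery rate was under 0.05. EPOP is filled for PROTAC against DMSO (0.29) and against UNC (0.51), and PHF19 for UNC against DMSO (-0.22), all in the paired fit.

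For several of these genes the replicate number accounted for more of the spread than the compounds did. Of the sum of squares of log2 CPM over the 9 libraries, the number took 86.5% for PHF1, 83.2% for JARID2, 68.4% for LCOR and 40.5% for MTF2, against 5.25%, 1.41%, 6.36% and 25.5% for the group. PHF19, EPOP and AEBP2 were the reverse, with 90.5%, 78.4% and 55.6% for the group and 5.97%, 13.5% and 28.8% for the number. Over all genes tested the medians were 22.5% for the group and 40.9% for the number. These shares describe the 9 libraries and carry no test.

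Libraries numbered 1 were then compared with those numbered 2 and 3, with the group in the model. PHF1 was lower in number 1 by 0.29 on the log2 scale (SE 0.0556, edgeR adjusted p = 0.000149), at 24.9 ± 1.102 CPM against 31.7 ± 1.31 CPM in number 2 and 29.1 ± 1.67 CPM in number 3 (SD, n = 3 each). JARID2 was higher in number 1 by 0.12 (SE 0.0450, edgeR adjusted p = 0.0449), at 878 ± 27.8 CPM against 801 ± 14.1 CPM in number 2 and 816 ± 7.76 CPM in number 3. The call for JARID2 was lost with RLE scaling (edgeR adjusted p = 0.0670) and with no group term (edgeR adjusted p = 0.120), and the call for PHF1 was kept in all 4 alternatives run. The other 5 genes were not called, and 28.1% of all genes were, so 2 of 7 is close to the background. What the number stands for beyond a repeat of the experiment was not tested.

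**Figure D5:**
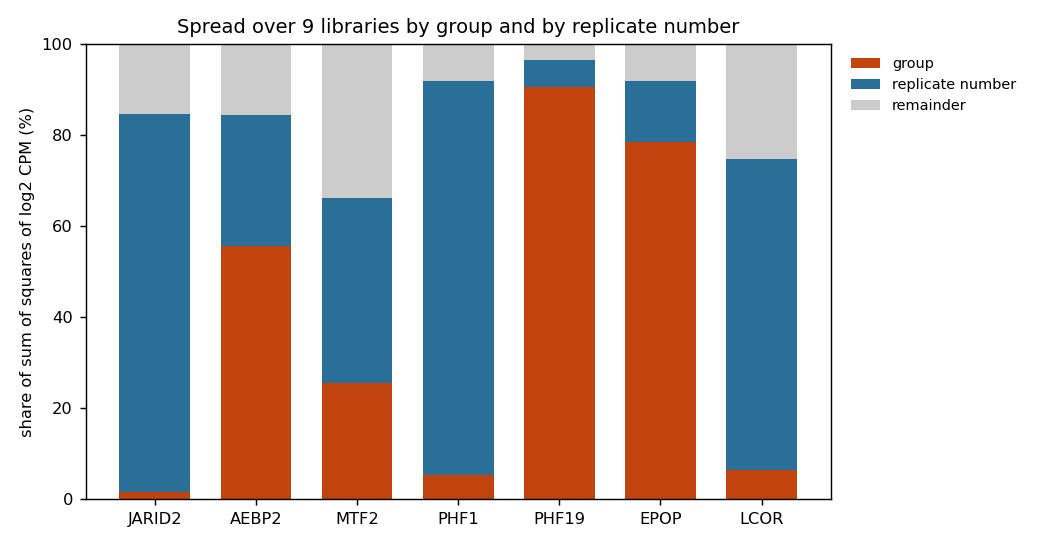
Share of the sum of squares of log2 CPM over 9 libraries taken by the group, by the replicate number and by the remainder, for each accessory subunit. The number takes over 80% for JARID2 and PHF1, and the group 90.5% for PHF19 and 78.4% for EPOP.

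Between the 7 genes the levels followed no common course over the 9 libraries. Of 21 pairs, Pearson's r of log2 CPM ran from -0.90 for JARID2 with PHF1 to 0.69 for AEBP2 with MTF2. All pairs share their libraries and their scaling, so these values are descriptions. The genes with the most similar course to each, among 11713 or 11714 named genes at a mean of at least 5 CPM, were SEMA6A (r = 0.98) and CHML (0.98) for JARID2, AMN (0.95) and SH3BP5 (0.94) for AEBP2, and TBCEL (0.98) and LMAN2L (0.97) for MTF2. For PHF1 they were PGP (0.98) and ZC3H12A (0.98), for PHF19 TNFAIP2 (0.98) and CNTNAP1 (0.97), for EPOP C12orf75 (0.92) and EPAS1 (0.91), and for LCOR GASK1B-AS1 (0.97) and APPBP2 (0.96). These genes were picked for their high r, which carries no test.

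The rest of the Polycomb machinery is given as counts for comparison. Of 6 core subunits, 0 were called with PROTAC and 2 rose with UNC in the paired fit, the catalytic subunit EZH2 (0.24) and the histone chaperone RBBP4 (0.18), and 0 were called by group alone. Of 3 other PRC2 partners, EZHIP was too low to test, LCORL rose as above, and the chromodomain protein CDYL rose with UNC by 0.44 by group alone (edgeR adjusted p = 0.0337) and in the paired fit (edgeR adjusted p = 6.71e-06). By group alone the CDYL call was lost at a threshold of 0.01 and with library size only (edgeR adjusted p = 0.0624). It was lost too without PROTAC 3, UNC 2, UNC 3 or any DMSO library (0.0573 to 0.134), and without number 1, 2 or 3 (0.0523, 0.245 and 0.571). CDYL was lower with PROTAC than with UNC by 0.29 in the paired fit (edgeR adjusted p = 0.00523, and 0.405 by group alone). Of 27 PRC1 genes, 0 were called by group alone in any comparison. In the paired fit the corepressor BCORL1 rose with PROTAC (0.29), and with UNC the ubiquitin ligase RNF2 (0.19) and SCMH1 (0.33) rose while PCGF5 (-0.71), PHC2 (-0.64) and CBX7 (-0.25) fell. These 5 of 27 PRC1 genes and 2 of 6 core genes stand beside 13.5% of all genes called for UNC against DMSO in that fit, and with so few genes neither count is read as a result about its list. The H3K27 demethylase KDM6B rose with UNC in the paired fit (0.42, edgeR adjusted p = 7.13e-07) but was not called by group alone (0.43, edgeR adjusted p = 0.188), and KDM6A was not called in either. Between the compounds BCORL1 was higher (0.31) and KDM6B lower (-0.27) with PROTAC in the paired fit, and neither was called by group alone. Median log2 fold changes in the paired fit were 0.05 with PROTAC and -0.01 with UNC for the 7 accessory genes, 0.08 and 0.08 for the 6 core genes, and -0.01 and -0.01 over all genes tested.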

How the data were processed

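RNA was sequenced from 9 libraries of the line HNES1, 3 for each of PROTAC, UNC and DMSO. Per the labels' protocols, ribosomal RNA was depleted, yet the molecule label reads polyA RNA. The submitters' processing notes name Trim Galore 0.6.10, HISAT2 2.2.1 and GRCh38. Not given in the sources used here: counter, annotation and strand setting. Raw whole-number counts of reads for each gene were deposited by the authors. The 5 entries without an identifier (at most 0.0103% of a library) were left out.

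The counts entered edgeR 4.0.16 (R 4.3.3) with TMM scaling, the default expression filter and robust quasi-likelihood fits of all 9 libraries. Standard errors are the log2 fold change over the square root of F. Code was tested on simulated data. Lengths came from GENCODE 29 (84.9% of genes tested matched). The replicate number was taken to pair the libraries. The 9 correlations of deviations between libraries of the same number were 0.106 to 0.472, all above 0.1. The 18 between different numbers were -0.324 to 0.0748. Deviations from a group mean cancel within the group, so these 18 are not separate evidence of pairing. The labels do not say that a number marks a shared run. Replicates differed beyond counting noise in all 9 pairs of a group (chi-square over degrees of freedom 11.4 to 38.3). Common biological variation (edgeR) was 13.2% for the fit by group and 6.09% for the paired one. Alternatives were DESeq2 1.42.0, limma 3.58.1 (voom), RLE, upper-quartile and library-size scaling, a filter at 1 CPM in 3 libraries or none, fits to just the 6 libraries of a comparison, a threshold of 0.01, and the omission of single libraries or numbers.

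The 7 genes, the gene lists and the tests were chosen with earlier results of these data known. The genes named are the 7, the targets EED and EZH2, list genes called in either fit, the 2 closest correlates of each of the 7, and genes overlapping them. Marker genes, EZHIP and KDM6A fall outside this rule and were named after their values were seen.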

Additional observations from a re-analysis of the deposited data

Results flagged for a closer look

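EPOP was the 1 accessory gene for which the effects of the compounds differed by a direct test: its level was higher with PROTAC than with UNC by 0.51 on the log2 scale in the paired fit (edgeR adjusted p = 0.000136, higher in 3 of 3 pairs). Against DMSO it differed by 0.29 with PROTAC and by -0.22 with UNC in that fit, and only the value with PROTAC was called. That call was kept in 3 of the 18 further paired settings. By group alone EPOP was not called between the compounds (edgeR adjusted p = 0.265) or for PROTAC against DMSO (edgeR adjusted p = 0.987).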

How the results depend on the processing

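By group alone, 0 genes of the 7 were called under all 21 alternatives for PROTAC against DMSO and for UNC against DMSO, and for PROTAC against UNC 1 (EPOP) was called with DESeq2 and with no filter and 0 otherwise, including every fit without 1 library or 1 number. With the replicate block, 1 was called for PROTAC against DMSO with TMM, RLE scaling and DESeq2 (0 with library size only, limma-voom, upper-quartile scaling or a filter at 1 CPM, and 0 to 1 without single libraries or numbers). For UNC against DMSO 1 was called in all 7 paired settings that kept every library, and 0 to 2 without single libraries or numbers, EPOP joining PHF19 without number 1. For PROTAC against UNC 1 was called in all 19 paired settings. Upper-quartile scaling, the 1 CPM filter and the loss of single libraries within the paired fit were added after the data were seen. For number 1 against numbers 2 and 3, 2 genes were called, and 1 with RLE scaling or with no group term (JARID2 adjusted p = 0.0670 and 0.120); the cause was not tested.

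Signs changed only where the main difference was at most 0.0802 in size on the log2 scale (PHF1 in PROTAC against UNC), and none of these was called. PHF1 in UNC against DMSO was 0.0030 with RLE scaling, 0.00391 with DESeq2, and -0.0754 to 0.104 over 12 leave-one-out fits by group alone, and paired 0.000277 with RLE scaling, 0.000252 with DESeq2, 0.0505 without number 1, 0.000746 without number 2, 0.0251 without UNC 1, 0.00345 without UNC 2, 0.0487 without DMSO 1. LCOR in PROTAC against UNC was -0.00486 with RLE scaling, -0.00571 with DESeq2, -0.00722 with limma-voom, -0.0013 with no filter, -0.00435 with the 1 CPM filter, and -0.0549 to 0.0582 over 12 leave-one-out fits by group alone, and paired -0.00401 with RLE scaling, -0.00429 with DESeq2, -0.00245 with limma-voom, -0.00291 with the 1 CPM filter, -0.0352 without number 2, -0.0309 without number 3, -0.016 without PROTAC 2, -0.012 without PROTAC 3, -0.0256 without UNC 2, -0.0208 without UNC 3. JARID2 in PROTAC against DMSO was -0.00936 with upper-quartile scaling, -0.0131 with library size only, -0.00156 with the 1 CPM filter, and -0.0324 to 0.0448 over 12 leave-one-out fits by group alone, and paired -0.0151 with library size only, -0.0106 with upper-quartile scaling, -0.00259 with the 1 CPM filter, -0.0142 without number 1, -0.00291 without number 3, -0.000682 without PROTAC 3, -0.0193 without DMSO 1. JARID2 in UNC against DMSO was -0.00141 with upper-quartile scaling, -0.00879 with library size only, and -0.0384 to 0.0553 over 12 leave-one-out fits by group alone, and paired -0.013 with library size only, -0.00381 with upper-quartile scaling, -0.0194 without number 1, -0.0071 without UNC 1, -0.0108 without DMSO 1. MTF2 in PROTAC against UNC was -0.095 to 0.022 over 12 leave-one-out fits by group alone, and paired 0.00687 without number 1, 0.000772 without UNC 2. PHF1 in PROTAC against DMSO was -0.0218 to 0.181 over 12 leave-one-out fits by group alone. JARID2 in PROTAC against UNC was -0.0525 to 0.0494 over 12 leave-one-out fits by group alone, and paired 0.00525 without number 1, 0.00693 without PROTAC 2, 0.0169 without UNC 1. PHF1 in PROTAC against UNC was -0.0303 to 0.187 over 12 leave-one-out fits by group alone. LCOR in UNC against DMSO was -0.0926 to 0.0219 over 12 leave-one-out fits by group alone. AEBP2 in number 1 against numbers 2 and 3 was 0.00296 with library size only. MTF2 in number 1 against numbers 2 and 3 was 0.0107 with library size only. PHF19 in number 1 against numbers 2 and 3 was 0.0232 with library size only.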
